A study of Homo sapiens with 6 samples.

Results

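RNA sequencing compared cells given LGR6 siRNA 4 with cells given a control siRNA, in 2 human non-small cell lung carcinoma lines, A427 and HCC15, both labelled as wild type. The comparison rests on 4 of the 6 libraries of the series: A427 with the control siRNA, labelled Tax, A427 with LGR6 siRNA 4, HCC15 with the control siRNA, and HCC15 with LGR6 siRNA 4. The other two libraries came from the same lines with LGR6 siRNA 2. All cells were grown in RPMI 1640 with 5% fetal bovine serum and were harvested 48 h after transfection. There was 1 library per line and siRNA, and each siRNA 4 library was paired with the control library of its own line.

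LGR6 is a leucine-rich repeat receptor for R-spondins, secreted ligands that amplify the Wnt pathway. Bound R-spondin draws the ubiquitin ligases RNF43 and ZNRF3 away from the Frizzled and LRP co-receptors, so that beta-catenin can reach the nucleus and switch on its targets. An siRNA is a short duplex whose guide strand, loaded into an Argonaute protein, directs cleavage of a fully matching transcript. Guide strands can also lower transcripts that match a short stretch near the guide's 5′ end, mostly through sites in 3′ untranslated regions.

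Library depth lay between 25546438 and 28987906 reads, and 14481 of 23686 genes had at least 10 reads in at least 2 libraries and were tested. KRT8, KRT18 and EPCAM, markers of epithelial cells, were present in both lines. Levels are in CPM (read counts scaled to a common library size, with TMM factors). KRT19, also epithelial, was between 0.109 and 0.229 CPM in A427 and between 8.26 and 22.4 CPM in HCC15. CDH1 was between 6.92 and 7.7 CPM in A427 and between 14.1 and 102 CPM in HCC15. SFTPB and SFTPC were at 0 and NKX2-1, TP63 and KRT5 were at or near 0 CPM in every library. Of the markers of other cells, DCN, CD3E, LYZ and KDR were at 0 in every library. COL3A1 was between 189 and 246 CPM in A427 and PTPRC between 2.74 and 3.63 CPM there. COL1A1 was between 14.65 and 30.05 CPM over all libraries, and CD14 between 1.65 and 2.09 CPM in HCC15. Every pair of libraries differed by more than sampling noise. With 1 library per line and siRNA, and no label on separate cultures, the p-values below measure how alike the siRNA effects were in the lines, not a spread between repeat cultures.

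LGR6 itself was low in A427 and clearly present in HCC15. In HCC15 the control library held 257 LGR6 reads, the siRNA 4 library 77 and the siRNA 2 library 39. The HCC15 level with siRNA 4 was thus 30.7% of control (95% interval from an exact binomial test, 23.5% to 39.8%), and that with siRNA 2 was 14.0% (9.72% to 19.7%). Both intervals cover counting error only. In A427 there were 5 reads with the control siRNA and 0 with either LGR6 siRNA, where 3 reads, the limit set for a count of 0, would be 0.115 CPM with siRNA 4 and the exact 95% interval reaches 0.141 CPM. The A427 interval for siRNA 4 reached 116% of control, so a fall in A427 was not detectable at this depth. Fitted over both lines with edgeR's quasi-likelihood test, LGR6 fell by 1.76 on the log2 scale (SE 0.32, Benjamini-Hochberg adjusted p = 0.00758), a value that rests on HCC15. The adjusted p was 0.0777 with limma-voom and 0.255 on log2(TPM + 1) in limma. Leaving out the A427 control gave 0.0753, leaving out the HCC15 control 0.335 (log2 difference -4.81) and leaving out HCC15 siRNA 4 0.308 (-5.12). LGR6 with siRNA 4 was 1.12 above siRNA 2 on the log2 scale, a difference that did not pass the threshold (SE 0.41, adjusted p = 0.0906).

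The response to siRNA 4 held more genes that fell than genes that rose, and the falls were larger. A gene was called changed when its adjusted p was under 0.05 and its log2 ratio of siRNA 4 to control, computed from CPM + 0.5, had the same sign in A427 and HCC15. By this rule 1765 genes changed, which is 12.2% of those tested: 646 rose (4.46%) and 1119 fell (7.73%). A further 49 genes passed the adjusted p with opposite signs or no change in 1 line, so that 12.5% passed in all. At least 2-fold in both lines, 42 genes rose and 227 fell. The median fitted log2 difference was 0.71 among the genes that rose and -0.90 among those that fell, beside -0.01 over all genes tested. The log2 ratio was larger in size in HCC15 than in A427 for 434 of the 646 genes that rose and 841 of the 1119 that fell. Median log2 ratios among the latter were -0.72 in A427 and -0.96 in HCC15. The same count was not made over all genes tested, so it is not shown to be particular to the changed genes. In 33 of the genes that rose and 92 of those that fell, 1 line had under 1 CPM with control and with siRNA 4, so the shared sign carries little there. The other 1640 changed genes had at least 1 CPM in both lines. In bulk RNA, fewer cells of a kind and less RNA per cell cannot be told apart.

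The count leaned on single libraries. With a control or siRNA 4 library left out, the sign could be checked only in the line that kept both, a looser rule than above. Leaving out the A427 control library gave 397 genes, leaving out the HCC15 control library 118 and leaving out the HCC15 siRNA 4 library 456, and 0 genes passed when cell line was left out of the edgeR model, with 361 at an unadjusted p under 0.05. Of the 118 genes called without the HCC15 control library, 112 were among the 1765.

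**Figure D1:**
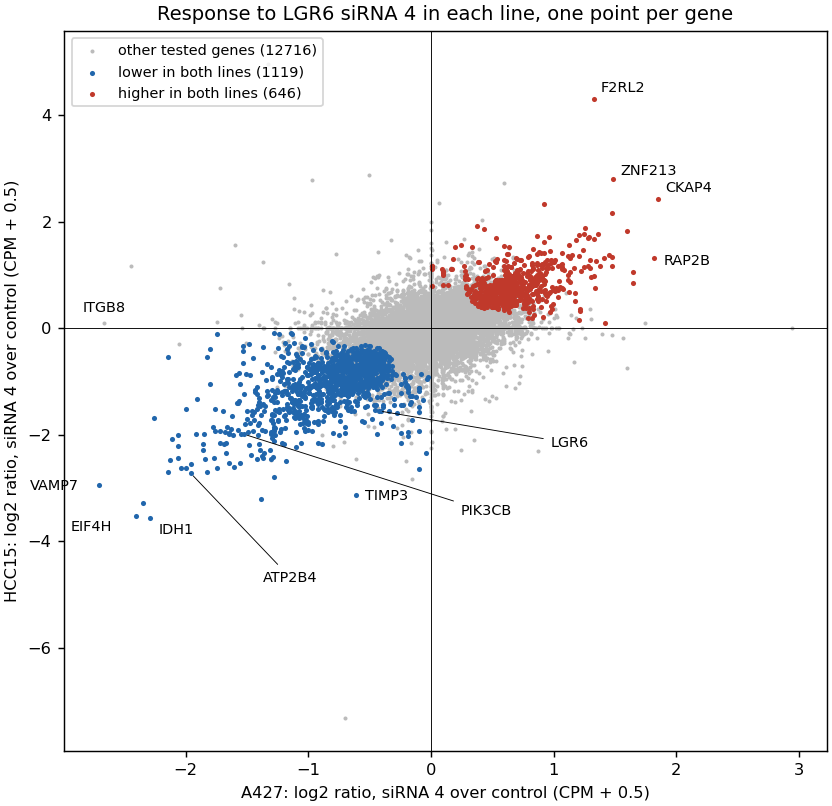
Each point is 1 tested gene, with the log2 ratio of siRNA 4 to control (CPM + 0.5) in A427 on the horizontal axis and in HCC15 on the vertical axis. The 646 genes that rose (red) and the 1119 that fell (blue) lie in opposite quadrants, and VAMP7, EIF4H and IDH1 lie at the lower left.

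The genes with the largest rise in both lines included an ER membrane protein, an HSP90 co-chaperone and small GTPases. Their order is by the smaller of the 2 lines' log2 ratios. CKAP4, which anchors ER sheets to microtubules and also serves as a cell-surface receptor, stood at 30.6 CPM in A427 and 32.6 CPM in HCC15 with the control siRNA, and at 112 and 177 CPM with siRNA 4. Both siRNA 4 libraries thus lay well above both controls (log2 difference 2.14, SE 0.17, adjusted p = 0.00121). FKBP4, an immunophilin that works with HSP90 in steroid receptor complexes, went in A427 from 200 to 557 CPM and in HCC15 from 128 to 578 CPM (1.84, SE 0.18, adjusted p = 0.00142). RHEB, the GTPase that switches on mTORC1 at the lysosome, went from 37.2 to 96.5 CPM and from 52.9 to 182 CPM (1.58, SE 0.14, adjusted p = 0.00121). Neither gene's siRNA 4 and control libraries overlapped. Ranking genes by size of change favours such separation, here and among the falls below, and its share over all genes tested was not counted.

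RAP2B, a Ras-family GTPase, stood at 40.7 CPM in A427 controls and 145 CPM with siRNA 4, and at 3.46 and 9.39 CPM in HCC15. The lines differed more in RAP2B than the siRNAs did, yet each line rose (1.68, SE 0.18, adjusted p = 0.00153). SUPT6H, a histone chaperone that travels with elongating RNA polymerase II, went in A427 from 70.3 to 173 CPM and in HCC15 from 53.2 to 176 CPM. F2RL2, which encodes the thrombin receptor family member PAR3, had the largest fitted rise of the 15 (4.11, SE 0.43, adjusted p = 0.00142). It was low in A427, at 0.479 CPM with control and 1.96 CPM with siRNA 4, and went from 1.9 to 47.2 CPM in HCC15.

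The remaining 9 genes of the 15 were SNX30, ZNF213, PRR14L, METRNL, LDLRAD3, TMEFF1, MYH14, SBK1 and FBXW5, with fitted log2 differences from 1.41 (SBK1) to 2.32 (ZNF213). SNX30 is a sorting nexin of endosomes, MYH14 a non-muscle myosin heavy chain and FBXW5 a substrate adaptor of cullin ubiquitin ligases. Without the HCC15 control library 8 of the 15 no longer passed: SNX30 (adjusted p = 0.0532), ZNF213 (0.0622), METRNL (0.159), F2RL2 (0.141, with a log2 difference of 2.11), LDLRAD3 (0.0695), TMEFF1 (0.147), MYH14 (0.0613) and SBK1 (0.079). Without the A427 control library METRNL (0.092), TMEFF1 (0.0889) and SBK1 (0.0629) did not pass. METRNL (0.111) and TMEFF1 (0.0559) did not pass without A427 siRNA 4, and F2RL2 (0.0544) did not pass without HCC15 siRNA 4. CKAP4, FKBP4, PRR14L, RHEB, RAP2B, SUPT6H and FBXW5 passed in each of these leave-outs.

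The genes with the largest fall in both lines were lowered to between 8.27% and 25.9% of control. VAMP7, a SNARE protein that fuses late endosomes and lysosomes with other membranes, stood at 124 CPM in A427 and 135 CPM in HCC15 with the control siRNA. With siRNA 4 it stood at 18.6 and 17.1 CPM, or 15% and 12.7% of control. Both siRNA 4 libraries lay far below both controls (log2 difference -2.86, SE 0.13, adjusted p = 0.000222). EIF4H, which stimulates the eIF4A helicase in translation initiation, went in A427 from 382 to 71.6 CPM and in HCC15 from 679 to 58.2 CPM (-2.95, SE 0.26, adjusted p = 0.00121).

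PSMB2, a beta subunit of the 20S proteasome core, went in A427 from 172 to 33.5 CPM and in HCC15 from 267 to 27.1 CPM. IDH1, the cytosolic NADP-dependent isocitrate dehydrogenase, went from 169 to 34 CPM and from 236 to 19.5 CPM. The log2 differences of PSMB2 and IDH1 were -2.82 (SE 0.21, adjusted p = 0.00121) and -2.89 (SE 0.31, adjusted p = 0.00167), with no overlap between siRNA 4 and control libraries. CYBRD1, a ferric reductase of iron uptake, kept 22.6% of its control level in A427 and 17.3% in HCC15. WRB, part of the receptor that inserts tail-anchored proteins into the ER membrane, kept 22.7% and 20.7%.

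ATP2B4, a plasma membrane calcium pump, was low in A427, at 4.83 CPM with control and 0.87 CPM with siRNA 4, and went from 82.4 to 12 CPM in HCC15 (-2.82, SE 0.33, adjusted p = 0.00221). Without the HCC15 siRNA 4 library its difference was -2.10 and did not pass (adjusted p = 0.0735). FNDC3A, EPDR1, UHMK1, CPEB3, NHLRC3, PGM2L1, GMFB and CHIC1 complete the 15, with log2 differences from -1.99 (CHIC1) to -2.47 (CPEB3). UHMK1 is a serine/threonine kinase, CPEB3 binds mRNA and governs translation, PGM2L1 makes glucose 1,6-bisphosphate, and GMFB remodels branched actin. All of the 15 lowered genes except ATP2B4 passed whichever of the 6 libraries was left out.

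**Figure D2:**
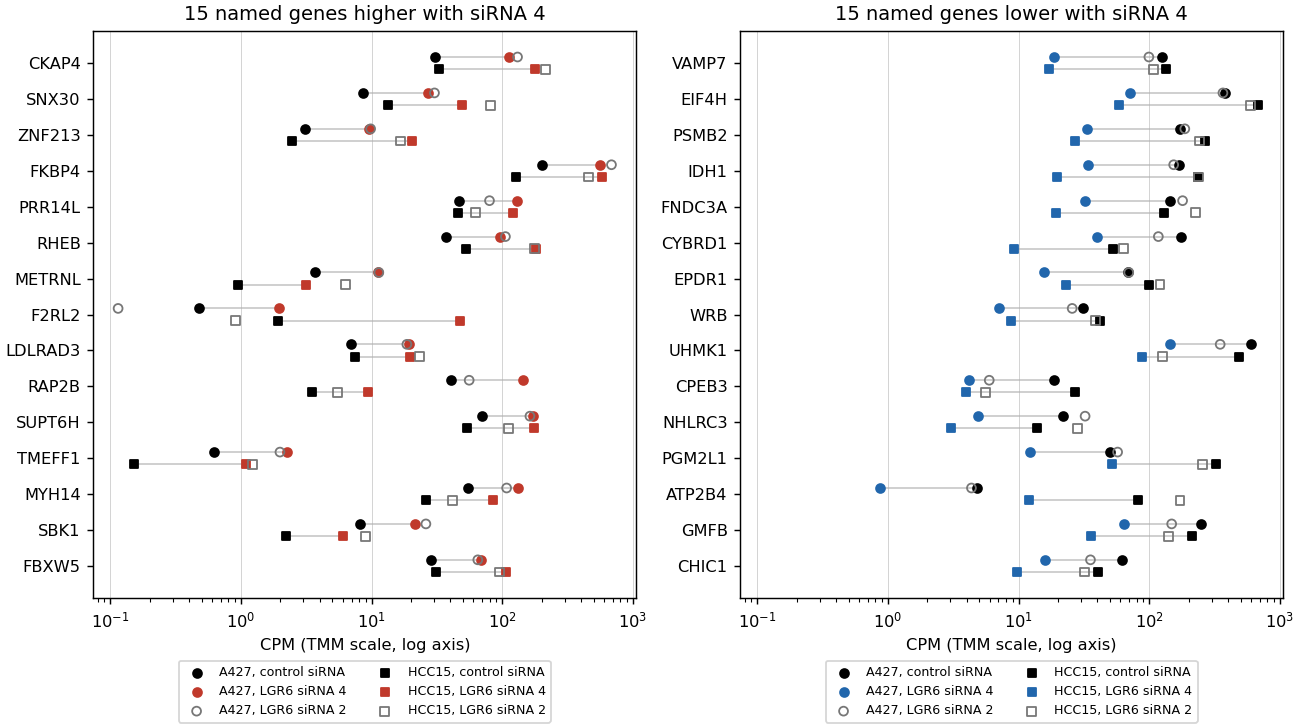
CPM on a log axis for the 15 genes with the largest rise (left) and the 15 with the largest fall (right) in both lines; circles are A427 and squares HCC15, filled black for control, filled colour for siRNA 4 and open for siRNA 2. The line joins control and siRNA 4 of 1 cell line, and CPM compares libraries within a gene, since it does not correct for transcript length. For VAMP7, EIF4H, PSMB2 and IDH1 the open symbols lie near control, and for CKAP4 and RHEB near siRNA 4.

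Many of the genes that fell held the same short word in their 3′ untranslated regions. Of the 7-letter words counted in the longest annotated 3′ untranslated region of each gene (GENCODE release 29), ATGGATA was the most enriched by density in the genes that fell at least 2-fold in both lines, the first of 10871 words with at least 15 occurrences. This set and this word were chosen after the values were seen, and no test was made. The windows below come from genes among the 15 with the largest fall, from LGR6 and from PIK3CB, and show the word in capitals with the bases around it, on the transcript strand, 5′ to 3′.
LGR6: ccgtgtgactcATGGATAggatacaaaat
VAMP7: aaacaatataaATGGATAatagttgttat
EIF4H: attcagctgtgATGGATAtagagaatcag
PSMB2: taaaggtgactATGGATAtaattgagccc
FNDC3A: aacaatttagaATGGATAttttgacgaat
EPDR1: cccagctggagATGGATAtgagactagtc
NHLRC3: ctgagggaatcATGGATActtcgcaggag
PIK3CB: gaaaactgtcaATGGATAatcatttcctg

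All of these windows lie in 3′ untranslated exon sequence of the gene named, on GRCh38, which is not the build of the deposited counts (hg19). The LGR6 window is chr1:202319589-202319617 on the plus strand, 393 bases after the stop codon, in an untranslated region of 574 bases. VAMP7 has its window at chrX:155942395-155942423 (plus strand), EIF4H at chr7:74195826-74195854 (plus) and PSMB2 at chr1:35603134-35603162 (minus). FNDC3A has its window at chr13:49207686-49207714 (plus), EPDR1 at chr7:37950444-37950472 (plus), NHLRC3 at chr13:39048527-39048555 (plus) and PIK3CB at chr3:138655148-138655176 (minus). EIF4H, FNDC3A, EPDR1, NHLRC3 and PIK3CB each hold a second copy farther from the stop codon. The flanks differ from gene to gene outside the word.

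The word was in 116 of the 206 genes that fell at least 2-fold in both lines and had an annotated 3′ untranslated region (56.31%), against 10.68% of all 12672 tested genes with one. Among all genes that fell it was in 35.85%, among genes not called changed in 8.693% and among genes that rose in 4.746%. The next word in rank, TGGATAA, overlaps the first by 6 letters and was in 48.54% of the strongly lowered genes and 11.79% of all tested genes. Either of these words was in 73.3% and 17.57%. Of the 15 genes with the largest fall 11 held ATGGATA and 13 held either word, and of the 15 with the largest rise 0 held either. IDH1 held the word once in its coding region and not in its 3′ untranslated region.

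Among genes at least 2-fold lower in A427, whatever HCC15 did, ATGGATA ranked first and was in 47.04%, and among those at least 2-fold lower in HCC15, whatever A427 did, it ranked first and was in 36.12%. Both sets hold the genes that fell at least 2-fold in both lines and had at least 1 CPM in both controls, so these ranks are not separate support. Among the genes that fell at least 2-fold with siRNA 2 it was in 12.77%, and the leading word of that set was GTGATTC, in 54.26% against 12.74% of all tested genes. In coding regions ATGGATA was in 25.24% of the strongly lowered genes and 9.004% of all. With the shortest annotated 3′ untranslated region of each gene in place of the longest, a choice added after seeing the data, its shares were 31.55% and 4.474%.

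Because the word was picked from the genes that fell most, a lower response of genes with it was built in. The values by copies are a description. Of the genes with 0 copies 5.77% fell, of those with 1 copy 26.2%, of those with 2 copies 34.4% and of the 38 genes with 3 or more 18.4%. The median log2 ratio with siRNA 4 was 0.0124 in A427 and 0.0164 in HCC15 with 0 copies, and -0.198 and -0.249 with 1 copy. It was -0.342 and -0.429 with 2 copies, and -0.152 and -0.104 with 3 or more. With siRNA 2 the medians of the same classes of up to 2 copies were between -0.0584 and 0.0224. Genes with the word had longer untranslated regions (median 3160 bases with 1 copy, 4872 with 2 and 1218 with 0). The shares with and without the word were therefore also read within 3 classes of length, but not by number of copies. In the shortest class 27.7% of genes with the word fell and 3.81% of those without it, in the middle class 30.1% and 5.98%, and in the longest class 25.9% and 8.01%. The siRNA sequences are not given in the sources used here, and whether the word bears on the response was not tested.

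**Figure D3:**
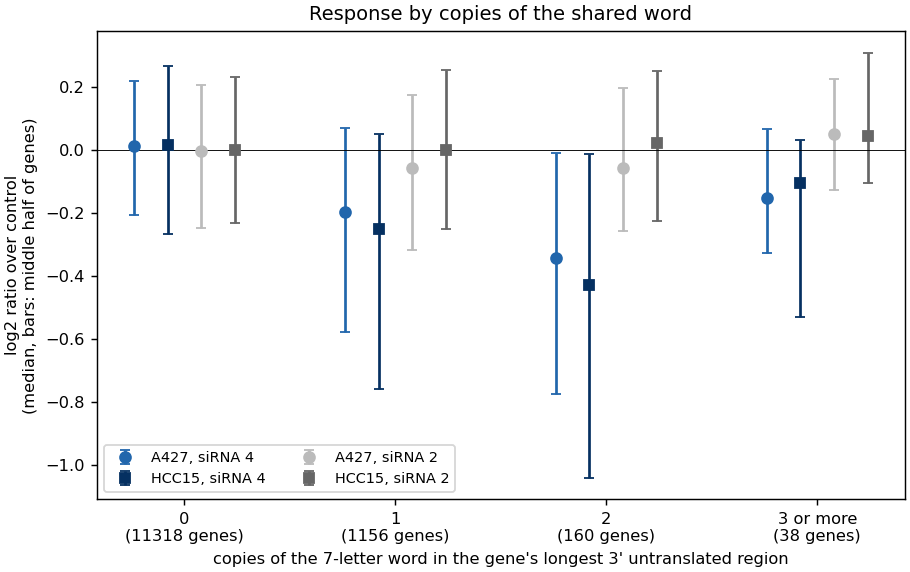
Median log2 ratio over control (points) and interquartile range over genes (bars) by the number of copies of ATGGATA in the longest 3′ untranslated region, for siRNA 4 (blue) and siRNA 2 (grey) in A427 (circles) and HCC15 (squares). The siRNA 4 medians lie lower with 1 and 2 copies than with 0, and those with 3 or more copies lie above those with 1. The siRNA 2 medians stay near 0.

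**Figure D4:**
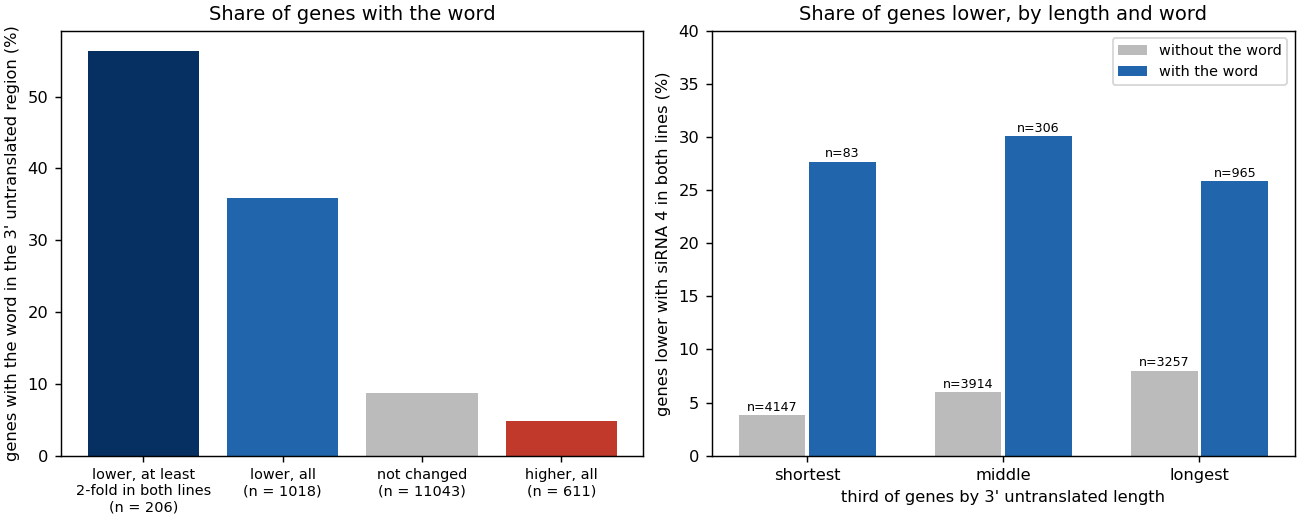
Left, percent of genes holding the word among genes that fell at least 2-fold in both lines, all that fell, those not called and those that rose (n under each bar). Right, percent of genes that fell, by class of 3′ untranslated length, without (grey) and with (blue) the word; the blue bar is the higher in each class.

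For some genes past the adjusted p, 1 line had under 1 CPM in both libraries. ITGB8, LY96 and SERF1A did not move the same way in both lines and are not among the 1765. TIMP3, an inhibitor of matrix metalloproteinases, went from 12.4 to 0.974 CPM in HCC15 and was under 1 CPM in A427 (-3.60, SE 0.36, adjusted p = 0.00121). MYLK3, a myosin light chain kinase, went from 15.4 to 2.03 CPM in HCC15. ITGB8, an integrin subunit that activates latent TGF-beta, went from 36 to 5.26 CPM in A427 and held 1 read with control and 2 with siRNA 4 in HCC15. SRGN, the core protein of a secretory granule proteoglycan, rose from 26.1 to 101 CPM in HCC15, and SPP1, which encodes osteopontin, from 0.342 to 2.61 CPM there and from 0.103 to 0.943 CPM in A427. LY96, the co-receptor of TLR4, went from 0.342 to 2.84 CPM in HCC15 and was at 0 in A427. The adjusted p of TIMP3 was 0.111 without the HCC15 control library and 0.364 without HCC15 siRNA 4, that of MYLK3 0.652 and 0.607, of SRGN 0.59 and 0.312, of SPP1 0.124 and 0.0781 and of LY96 1 and 1. ITGB8 did not pass without the A427 control library (adjusted p = 1) or A427 siRNA 4 (0.96). SERF1A in A427, which has a near-identical copy, and the pseudogene HNRNPA1P33 in HCC15 also met this rule, and their counts are uncertain because reads may be split among copies.

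The siRNA 2 libraries allow a direct test of whether a response differed between the LGR6 siRNAs. Between siRNA 4 and siRNA 2, 2395 genes differed (16.5% of those tested), 1115 higher with siRNA 4 (7.7%) and 1280 lower (8.84%). Of the 1119 genes that fell against control, 707 were also lower than with siRNA 2, 9 were higher and the others did not pass. Of the 646 that rose, 198 were also higher than with siRNA 2 and 5 were lower. These counts use the same siRNA 4 libraries in both comparisons and are a description. Among the lowered genes with an annotated 3′ untranslated region, 284 of the 365 with ATGGATA (77.8%) and 369 of the 653 without it (56.5%) were below siRNA 2. The word was picked from the genes that fell most in these same siRNA 4 libraries, so a larger share with it was built in. Their median log2 differences from control were -0.986 with the word and -0.836 without it. Leaving out a library turned the count of 2395 into 1359 (A427 control), 1345 (HCC15 control), 695 (HCC15 siRNA 2) and 646 (HCC15 siRNA 4).

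The named genes fell into different patterns with siRNA 2. VAMP7 stood at 99.2 CPM in A427 and 108 CPM in HCC15 with siRNA 2, near its controls, and was lower with siRNA 4 than with siRNA 2 by -2.54 (SE 0.13, adjusted p = 0.000301). EIF4H, PSMB2 and IDH1 likewise differed from siRNA 2 by -2.79 to -2.83, with adjusted p from 0.000506 to 0.00149. CPEB3 was low with both LGR6 siRNAs, at 4.13 and 3.94 CPM with siRNA 4 and 5.95 and 5.57 CPM with siRNA 2, against 18.5 and 26.8 CPM in controls. CPEB3 did not pass the test between the siRNAs (-0.51, SE 0.24, adjusted p = 0.183). CKAP4 stood at 131 and 215 CPM with siRNA 2 and differed between the siRNAs by -0.26 (SE 0.16, adjusted p = 0.313), and RHEB by -0.04 (SE 0.13, adjusted p = 0.864). RAP2B and PRR14L were higher with siRNA 4 than with siRNA 2, by 1.14 (adjusted p = 0.0047) and 0.81 (adjusted p = 0.00579).

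Among changed genes the largest differences from siRNA 2 were in F2RL2, ARHGAP31, SRPX2, STX3 and ZNF275 upward and in TIMP3, ATP2B4, MYLK3, FNDC3A and NHLRC3 downward. F2RL2 was at 0.114 CPM in A427 and 0.912 CPM in HCC15 with siRNA 2, and its difference was 5.44 (SE 0.48, adjusted p = 0.000621). STX3, a SNARE of apical membrane traffic, stood between its levels with each siRNA in the controls: in A427 24 CPM with siRNA 2, 51.2 with control and 77.7 with siRNA 4, and in HCC15 22.1, 46.7 and 87.9. Its difference was 1.85 (SE 0.14, adjusted p = 0.000506). ARHGAP31, a GTPase-activating protein for Rac and Cdc42, showed the same order in HCC15 (9.75, 19.5 and 44.1 CPM). NHLRC3 and ATP2B4 differed by -2.95 and -3.46, with adjusted p of 0.000406 and 0.00101.

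Gene lists were read against the shares over all genes tested, 4.46% that rose and 7.73% that fell. Counts of ATGGATA are given below for some lists only, beside 35.85% of all genes that fell. Some lowered members fell at least 2-fold in both lines and so were in the set from which the word was picked. Elsewhere it was in 2 of 9 lowered ATF4 genes, 1 of 7 sterol, 2 of 5 p53, 2 of 4 TGF-beta and 3 of 6 calcium genes. It was in 0 of 2 in the S phase, Notch, epithelial, mesenchymal and hypoxia lists. Of the 137 genes that the naming rule chose, list members included, 68 no longer passed with the A427 control library left out, 100 with the HCC15 control, 70 with HCC15 siRNA 4 and 19 with A427 siRNA 4. Of 22 tested R-spondin receptors and Wnt co-receptors, 0 rose and LGR6 alone fell, with a list median log2 difference of 0.103. DESeq2 called 1 gene of the list higher and 0 lower, and the median was -0.0938 without A427 siRNA 4 and -0.115 without the HCC15 control. The relatives of LGR6, named here after their values were seen, did not pass in the edgeR fit over both lines (adjusted p = 0.0962 for LGR4 and 0.0535 for LGR5). In HCC15 LGR4 went from 91.8 to 72.3 CPM and LGR5 from 9.32 to 5.26 CPM. Of 25 Wnt/beta-catenin targets, BMP4 and CCND1 fell and 0 rose (median -0.0486, and 0.00196 without HCC15 siRNA 4). The calls in this list depended on the method. With median-of-ratios size factors 1 rose and 1 fell, with no filter on low counts 0 and 1, and with DESeq2 1 and 3. BMP4, a secreted growth factor, went in A427 from 37.4 to 25.7 CPM and in HCC15 from 136 to 78.1 CPM (-0.67, SE 0.13, adjusted p = 0.015). CCND1, the cyclin that drives cells out of G1, differed by -0.41 (SE 0.11, adjusted p = 0.0475). ATGGATA is in 0 of the 2 that fell and in 5 of the 23 others. AXIN2, a feedback target chosen after its values were seen, differed by -0.13 (adjusted p = 0.517).

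Of 24 tested YAP/TAZ targets, 9 fell and 0 rose (median -0.433): CTGF, CYR61, ANKRD1, AMOTL2, DLC1, GADD45B, IGFBP3, NT5E and PTPN14. PTPN14, a phosphatase that restrains YAP, went in A427 from 198 to 89.9 CPM and in HCC15 from 882 to 338 CPM (-1.27, SE 0.15, adjusted p = 0.00232). DLC1, a RhoA GTPase-activating protein, went from 345 to 168 CPM and from 126 to 52 CPM (-1.16, SE 0.14, adjusted p = 0.00249). ANKRD1, a muscle ankyrin repeat protein, and IGFBP3, which binds insulin-like growth factors, were under 1 CPM in A427 and moved in HCC15, from 397 to 164 CPM and from 14.1 to 3.12 CPM. The 3′ untranslated regions of 2 of the 9 that fell, CTGF and DLC1, hold ATGGATA, and so do those of 3 of the 15 others. Of the 24, 4 passed when the A427 control was left out, 1 when the HCC15 control was and 2 when HCC15 siRNA 4 was.

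Amino acid response genes controlled by ATF4 mostly fell where they changed. Of 29 tested, 9 fell (ATF4, CHAC1, ASNS, PHGDH, PSPH, ALDH1L2, SLC38A2, NUPR1 and CTH) and SLC7A5 rose, with a median of -0.389. SLC38A2, a neutral amino acid transporter, went in A427 from 1914 to 1281 CPM and in HCC15 from 648 to 318 CPM (-0.80, SE 0.15, adjusted p = 0.0119). CTH, which makes cysteine from cystathionine, went from 19.9 to 11.6 CPM and from 43.2 to 25.9 CPM, and stood at 9.69 and 21.5 CPM with siRNA 2. CHAC1, a glutathione-degrading enzyme, went from 4.9 to 3.19 CPM and from 33 to 9.43 CPM. ALDH1L2, a mitochondrial folate enzyme, was absent from A427 beyond 1 read and went from 200 to 66.8 CPM in HCC15. Without the HCC15 control library, or without HCC15 siRNA 4, 0 of the 29 passed.

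In the list of ER chaperones and genes of the unfolded protein response, the called genes fell except CKAP4, the anchor of ER sheets described above. Of 24, CKAP4 rose and PDIA3, DNAJB9, DNAJB11, HERPUD1 and XBP1 fell. The list median was -0.00461, with -0.146 in A427 and 0.19 in HCC15, and turned positive with median-of-ratios size factors (0.00541). PDIA3, a disulfide isomerase that folds glycoproteins, went in A427 from 564 to 205 CPM and in HCC15 from 419 to 143 CPM (-1.5, SE 0.15, adjusted p = 0.00142). DNAJB9, an ER co-chaperone, went from 44.8 to 12.9 CPM and from 35.2 to 12 CPM (-1.68, SE 0.15, adjusted p = 0.00121). Of the 5 that fell, PDIA3 and DNAJB9 hold ATGGATA in their 3′ untranslated regions, as does 1 of the 19 others. PDIA3 and DNAJB9 were also lower than with siRNA 2 (-1.88 and -1.40, adjusted p = 0.000539 and 0.00138). Chaperones of the cytosol mostly did not pass: of 33, FKBP4 rose and DNAJB4 fell.

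Some sterol and fatty acid synthesis genes fell, and most lay below their levels with siRNA 2. Of 26 tested, 7 fell, among them IDI1, CYP51A1, MSMO1, HSD17B7, SCD and STARD4, and 0 rose (median -0.244). SCD, which makes monounsaturated fatty acids, went in A427 from 4100 to 1361 CPM and in HCC15 from 313 to 169 CPM (-1.25, SE 0.17, adjusted p = 0.00428). STARD4, a cholesterol carrier, went from 701 to 327 CPM and from 249 to 82.4 CPM (-1.34, SE 0.15, adjusted p = 0.00173). Against siRNA 2, 18 of the 26 were lower and 0 higher, with a median difference of -0.701. Against control the median was 0.465 with siRNA 2. With either control library left out, 1 of the 26 passed against control.

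Inflammatory and antioxidant genes were among those that rose. Of 17 tested NF-kappaB and inflammatory genes, CXCL3, TNFAIP3, NFKB1, RELB and ICAM1 rose and 0 fell (median 0.781, and 0.154 without the A427 control library). The median log2 ratio of the list was 0.533 in A427 but 0.103 in HCC15. Of the 17, 9 lay above 0 in both lines and 1 below 0 in both. NFKB1, the precursor of the p50 subunit, went in A427 from 71.2 to 120 CPM and in HCC15 from 36.1 to 63.3 CPM (0.78, SE 0.12, adjusted p = 0.00591). ICAM1, an adhesion molecule for leukocytes, went from 193 to 296 CPM and from 28.3 to 60.3 CPM (0.86, SE 0.17, adjusted p = 0.0149). TNFAIP3, the ubiquitin-editing brake on NF-kappaB, went from 13.1 to 22.1 CPM and from 1.98 to 5.53 CPM, and was also above siRNA 2 (0.97, adjusted p = 0.025). CXCL3 was under 1 CPM in HCC15, and its difference was -0.37 without the A427 control library. In this list 0 genes passed without either control library and 1 without HCC15 siRNA 4.

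Of 23 NRF2 targets, OSGIN1, FTL, AKR1C1 and GCLC rose and 0 fell (median 0.241). FTL, the ferritin light chain, went in A427 from 873 to 1291 CPM and in HCC15 from 2191 to 3544 CPM (0.63, SE 0.12, adjusted p = 0.014). GCLC, the catalytic subunit of the enzyme that starts glutathione synthesis, differed by 0.61 (SE 0.12, adjusted p = 0.0174). AKR1C1 had at most 1 read in an A427 library and went from 4.41 to 10.5 CPM in HCC15, and its difference was -0.36 without the HCC15 control library. Of 27 interferon-stimulated genes, IFIT5, ISG20, OASL and IFI44 rose and STAT2 fell (median 0.0808). IFI44 went from 17.5 to 38.3 CPM in HCC15 and was under 1 CPM in A427. STAT2, a transcription factor of the interferon response, went in A427 from 167 to 107 CPM and in HCC15 from 44.9 to 33.2 CPM. STAT2 holds ATGGATA, as do 4 of the 26 others. In the NRF2 list 1 gene passed without the A427 control library and 0 without the HCC15 control library or HCC15 siRNA 4, and in the interferon list 0 passed without any of these.

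Of 29 genes of DNA replication and S phase, PRIM1 and CCNE2 fell (median 0.00963). CCNE2, a cyclin of S phase entry, went in A427 from 14.3 to 5.11 CPM and in HCC15 from 23.2 to 8.61 CPM (-1.45, SE 0.17, adjusted p = 0.00204). Of 28 genes of mitosis and the spindle, MAD2L1, ECT2, CCNA2 and KIF11 fell and NUSAP1 rose (median -0.0907). MAD2L1, a spindle checkpoint protein, went from 57.8 to 20.5 CPM and from 58 to 16.4 CPM (-1.66, SE 0.14, adjusted p = 0.00121). ATGGATA is in 3 of the 4 that fell and in 1 of the 24 others. Of 17 cyclins, kinases, inhibitors and RB family genes, CCND2, CDK4 and E2F3 rose and CCND1 and CDKN1B fell (median -0.0147). With median-of-ratios size factors, or with no filter on low counts, 3 rose and 1 fell, and with DESeq2 3 and 3. CDK4, the partner of D cyclins, went from 224 to 326 CPM and from 155 to 225 CPM (0.54, SE 0.11, adjusted p = 0.0181). Replication-dependent histones had 1 lowered gene of 13, HIST1H1C (median -0.517).

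The p53 targets and the genes of the BCL2 and caspase list that passed in edgeR all fell. Of 23 p53 targets, TP53INP1, GDF15, SESN1, ZMAT3 and DDB2 fell and 0 rose (median -0.127). SESN1, a stress-induced regulator of mTORC1, went in A427 from 45.1 to 27.8 CPM and in HCC15 from 26.4 to 13.4 CPM (-0.82, SE 0.16, adjusted p = 0.0157). In this list 0 genes passed without either control library or without HCC15 siRNA 4. Of 29 genes listed with the BCL2 family and caspases, 4 fell, among them APAF1, PMAIP1 and BIRC2 (an inhibitor of apoptosis), and 0 rose (median -0.032). With DESeq2 1 rose and 5 fell. APAF1, the scaffold of the apoptosome, went from 68.6 to 25.9 CPM and from 83.3 to 26.4 CPM (-1.53, SE 0.14, adjusted p = 0.00134), and stood at 37.4 and 49.7 CPM with siRNA 2.

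Of 25 genes of TGF-beta signalling, TGFBR2, BMPR2, ID3 and LTBP2 fell and TGFBR1, ACVR1B and SMURF2 rose (median -0.313). With the A427 control left out 1 rose and 0 fell, with the HCC15 control left out 0 and 0, and with HCC15 siRNA 4 left out 1 and 1. TGFBR2, the type II receptor, went in A427 from 13.5 to 8.19 CPM and in HCC15 from 106 to 44 CPM (-1.02, SE 0.17, adjusted p = 0.00883). Of 23 Notch genes, MAML1 rose and JAG2 and NRARP fell (median -0.217). MAML1, a coactivator of Notch, went from 66.3 to 141 CPM and from 63.8 to 136 CPM (1.09, SE 0.12, adjusted p = 0.00153) and was also above siRNA 2 (1.04, adjusted p = 0.00154). Of 33 genes of ERK output and ERBB signalling, TGFA and HRAS fell and DUSP5 rose (median -0.0116, and 0.000203 with median-of-ratios size factors). TGFA, a ligand of the EGF receptor, went from 46.3 to 15.2 CPM and from 129 to 34.1 CPM (-1.77, SE 0.18, adjusted p = 0.0015).

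Of 36 genes of the mTORC1 pathway, RHEB, AKT1S1 and AKT2 rose and PIK3CB, SESN1, RPS6KB1 and RPS6KB2 fell (median 0.139). PIK3CB, a catalytic subunit of PI3-kinase, went in A427 from 188 to 65 CPM and in HCC15 from 78.6 to 19.4 CPM (-1.75, SE 0.17, adjusted p = 0.00142). Its level with siRNA 2, 167 and 82 CPM, was near control. ATGGATA is in 2 of the 4 that fell and in 2 of the 32 others. Of 26 cAMP and immediate early genes, NR4A3, FOSL2 and PDE4D fell and 0 rose (median -0.0797). NR4A3, an orphan nuclear receptor, went from 9.55 to 3.34 CPM and from 32.6 to 3.08 CPM (-2.50, SE 0.37, adjusted p = 0.0055). Of 30 calcium pumps, channels and contractile regulators, ATP2B4, STIM1, MYLK, MYLK3, MYL12A and ROCK2 fell and ATP2A2 and ORAI1 rose (median -0.117). MYL12A, a regulatory myosin light chain, went from 926 to 376 CPM and from 252 to 113 CPM (-1.23, SE 0.14, adjusted p = 0.00188).

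Chromatin regulators changed in both directions. Of 34 Polycomb, trithorax and SWI/SNF genes, JARID2, CBX2, PHC1, PHC2, KMT2A, KDM6B and ARID1A rose and SUZ12 and SMARCC1 fell (median 0.145). KDM6B, a demethylase of H3K27, went in A427 from 91.8 to 182 CPM and in HCC15 from 19.9 to 44.1 CPM (1.06, SE 0.12, adjusted p = 0.00192). SUZ12, a core subunit of PRC2, went from 212 to 88.7 CPM and from 111 to 32.6 CPM (-1.52, SE 0.18, adjusted p = 0.00241), and stood at 109 and 32.6 CPM with siRNA 2. With the A427 control left out 1 of the 34 rose and 2 fell, with the HCC15 control left out 0 and 1, and with HCC15 siRNA 4 left out 2 and 1. Of 27 histone deacetylases and DNA methylation enzymes, HDAC3, HDAC4, UHRF1 and TET3 rose and HDAC6, HDAC9, SIRT1 and TET1 fell (median 0.0995). HDAC3 went from 23.4 to 46.4 CPM and from 22 to 52.3 CPM (1.12, SE 0.14, adjusted p = 0.00262), and SIRT1, a NAD-dependent deacetylase, from 96.7 to 56.2 CPM and from 67.9 to 36.4 CPM. ATGGATA is in 2 of the 4 that fell and in 1 of the 23 others.

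Of 25 genes listed with the Argonaute and microRNA machinery, TNRC6A and IGF2BP1 rose and DICER1, LIN28A and HMGA2 fell (median -0.0237). The list also holds genes that are not part of that machinery, IGF2BP1 and HMGA2 among them. TNRC6A, the scaffold that links Argonaute to mRNA decay, went in A427 from 106 to 191 CPM and in HCC15 from 199 to 366 CPM (0.87, SE 0.11, adjusted p = 0.00293), and stood at 105 and 213 CPM with siRNA 2. DICER1, which cuts microRNA precursors, went from 225 to 158 CPM and from 344 to 145 CPM (-0.86, SE 0.18, adjusted p = 0.0209). ATGGATA is in 2 of the 3 that fell, DICER1 and LIN28A, and in 6 of the 22 others. LIN28A, which blocks maturation of let-7 microRNAs, was under 1 CPM in A427 and went from 15.3 to 3.59 CPM in HCC15.

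Adhesion and matrix genes changed in shares near the 12.2% over all genes tested. Of 22 epithelial adhesion and junction genes, TJP1 and ESRP1 fell (median -0.296), and of 16 mesenchymal genes, S100A4 and TAGLN fell (median 0.0686, and -0.00874 on log2(TPM + 1)). TJP1, a scaffold of tight junctions, went in A427 from 484 to 265 CPM and in HCC15 from 646 to 385 CPM (-0.81, SE 0.12, adjusted p = 0.00544). The summed CPM of KRT8, KRT18, KRT19, EPCAM and CDH1 was 889.9 in A427 with control and 697.1 with siRNA 4, and 4370 and 2726 in HCC15. The fibroblast markers summed to 217.7 and 276.2 CPM in A427 and to 17.91 and 15.9 CPM in HCC15, with control and siRNA 4. The part of these markers in the result was not tested. Of 27 integrins, laminins and collagens, ITGA6, LAMA3 and LAMA5 fell and LAMB3 rose (median -0.11). ITGA6, a laminin receptor subunit, went from 351 to 160 CPM and from 280 to 93.3 CPM (-1.35, SE 0.16, adjusted p = 0.00205), and stood at 535 and 475 CPM with siRNA 2.

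The remaining lists had few called members. Of 20 cell-surface proteases and inhibitors, F2RL2 rose and TIMP3 fell (median 0.0582). Of 29 hypoxia and glycolysis genes, SLC2A3 and LDHA fell and PGK1 rose (median 0.0952). SLC2A3, a glucose transporter, went in A427 from 2812 to 1220 CPM and in HCC15 from 2541 to 887 CPM (-1.36, SE 0.14, adjusted p = 0.00142). Of 35 nuclear-encoded respiratory chain subunits, NDUFV2 fell and SDHD rose (median 0.0866). Of 46 cytosolic ribosomal proteins 0 passed against control in edgeR, with 3 at an unadjusted p under 0.05, and 0 in DESeq2 (median 0.11), with RPL34 at 0.35 (SE 0.12, adjusted p = 0.093) and RPL8 at 0.29 (SE 0.12, adjusted p = 0.145). Against siRNA 2, 20 of the 46 were higher with siRNA 4 and 0 lower, with a median difference of 0.374, where their median against control was -0.278 with siRNA 2.

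**Figure D5:**
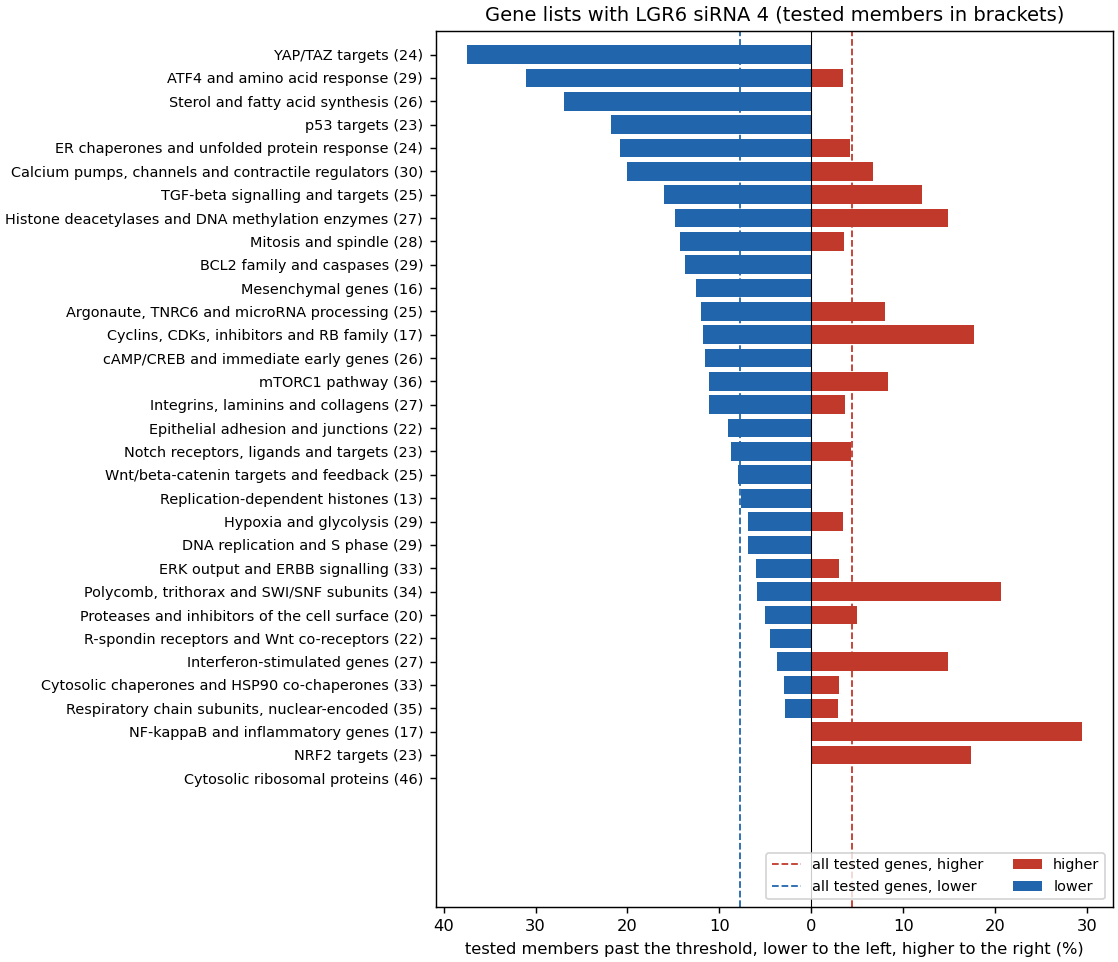
Percent of tested members of each of the 32 gene lists that fell (blue, to the left) or rose (red, to the right) with siRNA 4 in both lines, with the number tested in brackets. Dashed lines mark the shares over all genes tested, 7.73% that fell and 4.46% that rose. In this edgeR fit 9 of 24 YAP/TAZ targets and 9 of 29 ATF4 and amino acid response genes fell, and 5 of 17 NF-kappaB and inflammatory genes rose. These counts include genes under 1 CPM in 1 line, where the shared sign carries little: ANKRD1, IGFBP3 and ALDH1L2 in A427 and CXCL3 in HCC15.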

How the data were processed

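Column-purified, DNase-treated RNA was made into mRNA libraries with a KAPA HyperPrep kit, per the labels' protocols. After quality checks in FastQC (0.11.1), STAR (2.5.3a) aligned the reads to hg19 and RSEM (1.3.3) estimated gene counts, per the submitters' processing notes. Which annotation RSEM read was not given in the sources used here. Both tables that the authors deposited, 1 of RSEM expected counts and 1 of TPM, list 23686 genes. Of the deposited expected counts 5.75% to 6.29% per library were not whole, and all were rounded. The deposited TPM served only as an alternative.

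The 14481 genes that reached 10 reads in 2 or more of the 6 libraries were fitted in edgeR 4.0.16 (R 4.3.3; TMM, glmQLFit without the legacy setting, glmQLFTest), with cell line and siRNA as terms on all 6 libraries, which left 2 residual degrees of freedom. Cell line pairs the samples, per the labels. P-values were Benjamini-Hochberg adjusted over all genes tested, with a threshold of 0.05. On counts simulated with the dispersions of these libraries, the siRNA 4 comparison recovered 80% of 2-fold and 99% of 4-fold changes. The changes were set in well-counted genes only, by the same fold in both lines. Recovery in genes with few reads, or where the lines differ in size of response, was not simulated. Antisense and overlapping genes cannot be separated, since strand use is not stated.

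The comparison, its gene lists (32) and tests were chosen with earlier results of these data known. Named genes were LGR6, the 15 per direction with the largest smaller log2 ratio of the lines among changed genes with a mean of at least 1 CPM and a gene symbol, 4 per direction carried by 1 line, 5 per direction differing most from siRNA 2, and up to 4 changed members per list by smallest p (otherwise 2); members behind small counts were named after their values were seen. A few members of the lists are not reported here. Word counts used GENCODE release 29 transcripts (GRCh38), matched by symbol, with the longest 3′ untranslated region per gene (87.51% of tested genes) and the sense strand only. Alternatives were median-of-ratios size factors, DESeq2 1.42.0, limma 3.58.1 (voom and log2 TPM), other filters and dispersion settings, no cell line term, 4 libraries alone and leaving out each library.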

Additional observations from a re-analysis of the deposited data

How the results depend on the processing

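The number of genes changed with siRNA 4 against control (1765) was 1145 with limma on log2(TPM + 0.1) and 1252 on log2(TPM + 1), and between 1554 and 2027 with median-of-ratios size factors, DESeq2, limma-voom, other count filters, legacy dispersions or 4 libraries alone. Leaving out 1 library gave 118 to 2024. The number of genes differing between siRNA 4 and siRNA 2 (2395) was 1820 to 2412 over the other models and filters, and 646 to 2126 with 1 library left out. It split into 1115 higher and 1280 lower with edgeR, and 687 and 1232 on log2(TPM + 1) or 641 and 1179 on log2(TPM + 0.1). Without the replicate block, that is without the cell line that pairs the samples, both counts were 0 with edgeR, with 361 and 441 genes at an unadjusted p under 0.05. DESeq2 and limma-voom were not run without the block. Of the 30 genes with the largest changes in both lines, 30 kept their call with median-of-ratios size factors, limma-voom, log2(TPM + 0.1), both filters, legacy dispersions and 4 libraries alone, 28 on log2(TPM + 1), and 22 to 30 with 1 library left out; DESeq2 gave no adjusted p for 1 of them and kept the other 29. The log2 difference reversed in 3 named genes, all near 0 in the other line. With 1 library left out SERF1A ran from -1.06 (without A427 siRNA 4) to 3.13, AKR1C1 from -0.36 (without the HCC15 control) to 1.26 and CXCL3 from -0.37 (without the A427 control) to 3.55. The cause was not tested. With 1 library per line and siRNA, changes confined to 1 line could not be tested, and low genes such as LGR6 in A427 are limited by depth.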
